A study of Mus musculus with 8 samples.

Results

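The enzymes of melatonin synthesis are encoded by Tph1, Ddc, Aanat and Asmt, and the rows of the expression table that carry these names were taken, 4 of 53710 genes. Their mRNA was measured by RNA sequencing of pineal glands from wild type and 5xFAD mice. Each group had 4 libraries, and each library was made from the pooled glands of 5 to 7 male mice of 5 months, killed under ether at Zeitgeber time (ZT) 0.5 h, which is shortly after lights came on. Wild type mice were C57BL/6 from Koatech (pools WT-11, WT-21, WT-22, then WT-23). 5xFAD mice, a model of Alzheimer's disease, were B6.Cg mice from The Jackson Laboratory (pools 5xFAD-1, 5xFAD-2, 5xFAD-3, then 5xFAD-21). They carried human APP with the APPSwFlLon mutations and human PS1 with M146L and L286V, both driven by the neuronal Thy1 promoter, in addition to their mouse genes. Genotype and supplier differed together, so their effects cannot be told apart. Values are FPKM, which are fragment counts scaled for transcript length and sequencing depth.

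Melatonin is made from tryptophan in a chain of enzymatic steps. Tryptophan hydroxylase 1 (Tph1) adds a hydroxyl group, aromatic L-amino acid decarboxylase (Ddc) turns the product into serotonin, arylalkylamine N-acetyltransferase (Aanat) acetylates serotonin, and acetylserotonin O-methyltransferase (Asmt) makes melatonin. Aanat is the step that follows the daily rhythm: noradrenaline released at night raises cAMP in pinealocytes, and light ends the signal. C57BL/6 mice are known for very low pineal melatonin, which has been traced to variants of Aanat and Asmt.

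The chain was dominated by its first transcript. Tph1 ranked between 7 and 35 among protein-coding genes in a library and made up 78.7 to 89.7% of the summed FPKM of the 4 enzymes. None of the enzymes differed between 5xFAD and wild type glands beyond the spread between libraries. In limma on log2(FPKM + 0.1), 0 of the 4 enzymes passed an adjusted p of 0.05, against 5 of 13094 protein-coding genes (0.0382%), and 0 of the 4 had an unadjusted p under 0.05, against 7.95% of genes. The groups overlapped for all 4 enzymes, whereas 4.34% of genes had groups that did not overlap (2.11% above and 2.23% below wild type). All 4 enzymes had a mean of at least 1 FPKM and entered the test.

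**Figure D1:**
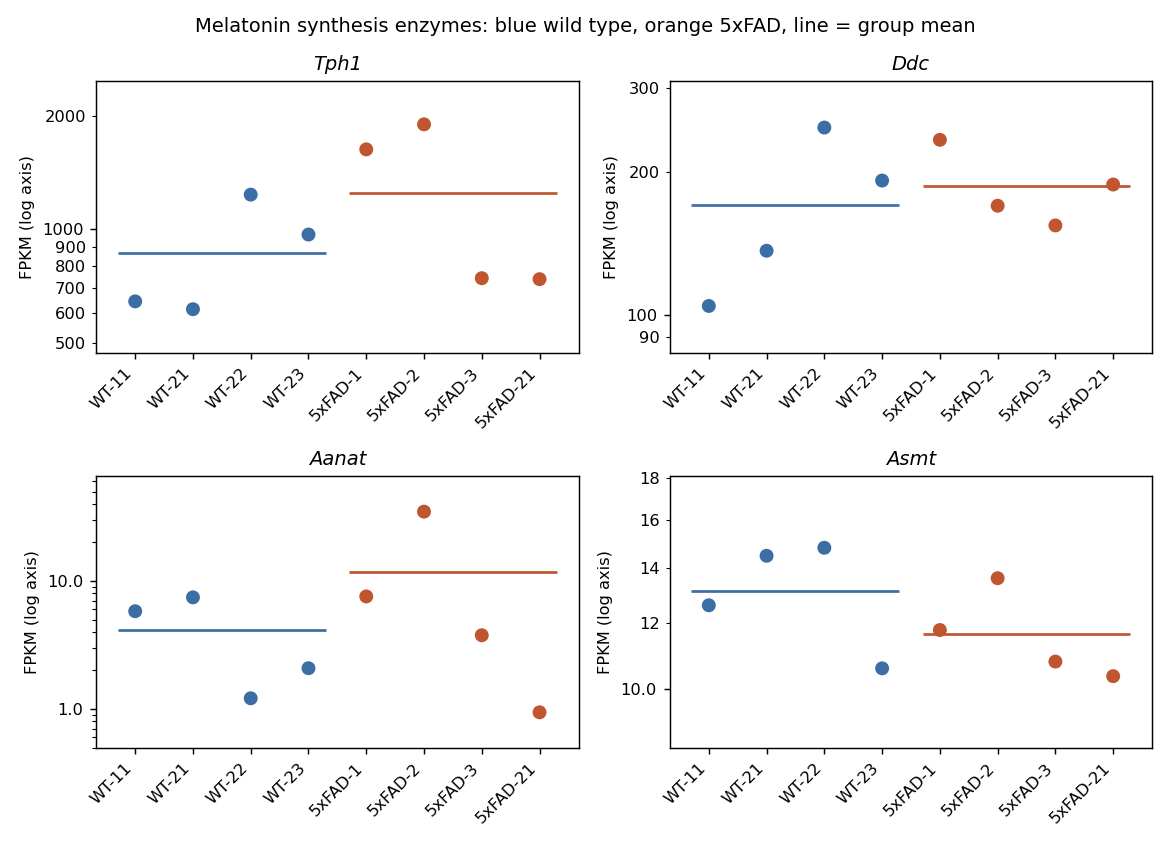
FPKM of the 4 enzymes in each library, on log axes with their own range (blue, wild type; orange, 5xFAD); each point is 1 pool of glands and each line is the mean of a group. The groups overlap in every panel, and the point that stands apart is Aanat in 5xFAD-2, at 34.8 FPKM.

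Tph1 (ENSMUSG00000040046.14) lies on the minus strand of chr7:46644641-46672537 (GRCm38) and has 8 annotated transcripts. Its FPKM was 643, 613, 1236 and 968 in the wild type pools and 1630, 1900, 741 and 737 in the 5xFAD pools, each in the order given above. In the 5xFAD group a pair of libraries was above every wild type library, and the other pair lay inside the wild type range. The group means were 865 ± 295 and 1252 ± 602 FPKM (SD, n = 4 each). The log2 fold change was 0.46 with a standard error of 0.39 (limma, adjusted p = 0.763). Its 95% interval ran from 0.748-fold to 2.53-fold, so that a change of either sign was not excluded at this number of libraries. Without 5xFAD-1 or 5xFAD-2 in turn the log2 fold change was 0.29 and 0.21. Tph2, the hydroxylase of brain serotonin neurons, was at most 0.0919 FPKM in any library. Mast cells also use Tph1, and the summed FPKM of 5 mast cell markers was 3.27 to 76.4 for wild type and 5.07 to 15.9 for 5xFAD. The highest sum was in WT-11, where Tph1 was 643 FPKM. The part of mast cells in the level of Tph1 was not tested.

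The RefSeq promoter table (GRCm38.p6) holds 2 starts of Tph1. The 250 bases before each are shown because Tph1 was the most abundant of the 4 and is known in rodents for a cAMP-linked rise at night, with the letters TGACG, the first bases of the cAMP response element TGACGTCA, and their reverse complement CGTCA in capitals.
Tph1, chr7:46672538-46672787, minus strand: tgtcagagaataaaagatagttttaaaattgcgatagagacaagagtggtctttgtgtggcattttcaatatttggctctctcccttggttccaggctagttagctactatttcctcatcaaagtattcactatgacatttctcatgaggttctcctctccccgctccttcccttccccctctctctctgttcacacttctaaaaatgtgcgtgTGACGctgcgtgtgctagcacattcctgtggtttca
Tph1, chr7:46667378-46667627, minus strand: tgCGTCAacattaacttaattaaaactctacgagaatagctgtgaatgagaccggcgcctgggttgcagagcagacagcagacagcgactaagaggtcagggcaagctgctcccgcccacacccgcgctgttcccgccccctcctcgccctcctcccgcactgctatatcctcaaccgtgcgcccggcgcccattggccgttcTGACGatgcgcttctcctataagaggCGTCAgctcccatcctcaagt
The match of the first promoter begins 36 bases before the start, and those of the other begin 248, 47 and 21 bases before it. TGACG on either strand was present in 17.8% of 32841 promoters of the same length and the full TGACGTCA in 1.55%. The full element was not in these windows, nor were TAATCC, the core bound by Crx and Otx2 (6.25% of promoters), and the E-box CACGTG (6.02%), each searched on both strands. Neither Ddc promoter, before chr11:11898144 and before chr11:11890408, held any of these letters. The table's window for Asmt is unread sequence, and it has none for Aanat.

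Ddc (ENSMUSG00000020182.16), on the minus strand of chr11:11814101-11898144, also makes dopamine in other tissues. Its FPKM was 105, 137, 247 and 192 in the wild type libraries, and 233, 170, 154 and 188 in the 5xFAD libraries. The 5xFAD values lay inside the wild type range. The means were 170 ± 62.8 (SD, n = 4) and 186 ± 34.2 FPKM (SD, n = 4), with a log2 fold change of 0.19 and a standard error of 0.26 (limma, adjusted p = 0.844). The log2 fold change was -0.018 without WT-11 and 0.40 without WT-22. Th, the hydroxylase of dopamine cells, was at most 0.468 FPKM. An antisense gene, listed as RP23-119N24.3, lies within Ddc and stood at 32.8 to 74.1 FPKM. Its exons shared 0 bases with those of Ddc, and Ddc was 3.15 to 4.56 times as high in every library. Whether reads were counted by strand is not given in the sources used here.

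Aanat (ENSMUSG00000020804.12) occupies chr11:116586432-116597680 on the plus strand. It had 5.81, 7.45, 1.21 and 2.08 FPKM in the wild type libraries and 7.58, 34.8, 3.77 and 0.943 FPKM in the 5xFAD libraries. Both the highest and the lowest library were 5xFAD pools, 37.0-fold apart. The log2 values of Aanat spread more over the 8 libraries than those of 98.9% of the genes tested, and the SD was 1.19 within wild type and 2.11 within 5xFAD, against medians over genes of 0.25 and 0.23. The means were 4.14 ± 2.98 (SD, n = 4) and 11.8 ± 15.6 FPKM (SD, n = 4). The log2 fold change of 0.77 had a standard error of 1.01 (limma, adjusted p = 0.838) and an interval from 0.347-fold to 8.39-fold. It turned to -0.10 without 5xFAD-2, to 1.59 without 5xFAD-21, to 0.32 without WT-22 and to 1.04 and 1.16 without WT-11 and WT-21 in turn.

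Of the 5 transcripts annotated for Aanat, 1 is coding and 2 are targets of nonsense-mediated decay, and the spliced forms part at the exon that ends at 116596280. The 30 bases before that splice site are shown in lower case, followed in capitals by the coding bases that each form adds.
Aanat-205, coding: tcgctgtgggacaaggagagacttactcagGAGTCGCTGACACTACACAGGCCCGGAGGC
Aanat-201, nonsense-mediated decay: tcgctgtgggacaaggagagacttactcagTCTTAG
Aanat-205 goes on to the exon at chr11:116596789-116597680, of which 30 bases are shown, and encodes 205 codons. Aanat-201 takes an extra exon of 102 bases at chr11:116596551-116596652, meets the stop codon TAG after its first 3 bases and ends after 105 codons. C57BL/6 mice are known to splice Aanat in this truncating way. The FPKM of Aanat is 1 value per gene and does not separate the forms.

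Asmt (ENSMUSG00000093806.1) is annotated at chrX:170672644-170678054, in the pseudoautosomal region, with 1 transcript of 1191 bases in 8 exons. It was 12.6, 14.5, 14.8 and 10.6 FPKM in the wild type libraries and 11.8, 13.6, 10.8 and 10.4 FPKM in the 5xFAD libraries. The levels of Asmt were the steadiest of the chain, 1.43-fold apart at most, and 33.6% of genes had a smaller SD of log2 values over the 8 libraries. Asmt was the enzyme whose mean was lower in 5xFAD, 11.6 ± 1.44 against 13.1 ± 1.95 FPKM (SD, n = 4 each). The log2 fold change of -0.17 with a standard error of 0.14 did not pass the test (limma, adjusted p = 0.764). Its interval was the narrowest of the 4, from 0.712-fold to 1.11-fold.

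FPKM is a level per transcript length, so the enzymes can be ranked within a library. Tph1 was above Ddc in 8 of 8 libraries, by 3.92- to 11.2-fold, and Ddc was above Asmt in 8 of 8, by 8.29- to 19.8-fold. The ranges of Tph1, Ddc and Asmt over the libraries did not overlap. Asmt was above Aanat in 7 of 8 libraries, and the order was turned in 5xFAD-2, where Aanat was at 34.8 and Asmt at 13.6 FPKM. The ratio of Asmt to Aanat ran from 0.391 to 12.2, so that these neighbours did not keep a fixed distance.

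The ratio of 2 enzymes within a library is free of library scaling, and asks whether the steps changed unequally. Among the 6 pairs, the smallest p was that of Asmt to Tph1, which was 0.0198, 0.0238, 0.0121 and 0.0110 in the wild type libraries and 0.00728, 0.00721, 0.0147 and 0.0142 in the 5xFAD libraries. The ratio was lowest in 5xFAD-1 and 5xFAD-2, but the other 5xFAD pools lay within the wild type range. The log2 difference was -0.63 (exact two-sided permutation test, p = 0.171, adjusted over the 6 pairs p = 0.789), where the smallest p that 4 against 4 libraries allow is 0.0286. The other 5 pairs had exact p values from 0.286 to 0.8 by the same permutation test, and the groups overlapped in all 6.

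Across the 8 libraries, Ddc and Tph1 had a Pearson's r of 0.65 (exact permutation p = 0.0844, adjusted over 6 pairs 0.506) and a Spearman's rho of 0.67 (exact permutation p = 0.0831, adjusted 0.499). Without 5xFAD-1 and 5xFAD-2, the libraries farthest from the median of Tph1, r was 0.87. None of the other 5 pairs had an adjusted exact permutation p under 0.622, with r from -0.34 to 0.42. The r of Aanat and Tph1 changed from 0.42 to -0.69 without 5xFAD-1 and 5xFAD-2. The libraries share scaling and tissue makeup, so these values describe the pools.

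The pools differed in makeup, and in 1 pool a transcript was at odds with the label. Xist, which is transcribed from the inactive X of female cells, was 13.3 FPKM in WT-22 and at most 0.0404 in the other 7 libraries, although all mice were labelled male. The Y-linked Ddx3y and Kdm5d were lowest in WT-22, at 32.0 and 9.04 FPKM against 38.7 to 59.4 and 9.42 to 12.1 elsewhere. Eif2s3y (39.1 FPKM in WT-22) and Uty (21.2) lay within the ranges elsewhere, 31.5 to 47.6 and 19.2 to 26.1. All of these Y-linked genes were present in all 8 libraries. Whether WT-22 held a female gland was not tested. All 8 pinealocyte markers (Crx, Gngt1, Sag, Pde6b, Rom1, Neurod1, Chga and Syp) were present in every library, and their summed FPKM ran from 1007 to 2564 (wild type) and from 1623 to 2370 (5xFAD). WT-11 and WT-21 had the lowest sums of these and the highest sums of 6 osteoblast markers, 1994 and 1542 FPKM, against 84.5 in WT-22 and 37.0 in 5xFAD-21. Most of each osteoblast sum was Col1a1, at 1893 FPKM in WT-11 and 1486 in WT-21. Bglap was 34.7 FPKM in WT-11, but lower in WT-21 (19.6) than in WT-23 (27.4). Of 6 choroid plexus markers, Ttr is listed at 0 in every 5xFAD library and at 9440 to 19630 FPKM in wild type, while the other 5 summed to 280 to 552 (wild type) and 48.9 to 718 (5xFAD). A level of 0 in this table can be a failed estimate, since Malat1, an abundant nuclear RNA, is also listed at 0 in all 8 libraries. In pooled tissue, fewer cells of a type and less RNA per cell cannot be told apart.

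Ddc was the enzyme whose level followed the pinealocyte markers most closely. Over the 8 libraries its log2 level had r = 0.89 with the mean log2 level of the markers (exact permutation p = 0.00337, adjusted over the 4 enzymes 0.0135) and rho = 0.81 (exact permutation p = 0.0218, adjusted 0.0871). Without WT-21 and WT-22, the farthest from the median of the markers, r was 0.87. For Tph1 r was 0.58 (exact permutation p = 0.134, adjusted 0.269), rho was 0.60 (exact permutation p = 0.132, adjusted 0.265), and r fell to 0.44 without those libraries. Aanat and Asmt had r of -0.38 and -0.13 (exact permutation p = 0.359 and 0.755). With marker lists of other cell types, the r of Ddc ran from -0.84 (neutrophil) to 0.31 (erythroid), with -0.81 for mast cells. Its tie to the pinealocyte markers was thus not the only strong one. The mean log2 deviation of the pinealocyte markers was -0.19 ± 0.59 in wild type and 0.19 ± 0.26 in 5xFAD (SD, n = 4 each). The groups overlapped, with WT-22 the highest library. None of the 8 pinealocyte markers passed an adjusted p of 0.05 in limma. At an unadjusted p under 0.05, 3 of the 8 were higher in 5xFAD (Gngt1, Sag and Neurod1), against 4.6% of all genes tested. The log2 fold changes of the other markers ran from -0.13 (Crx) to 0.31 (Rom1). Measured relative to the pinealocyte markers, the difference between 5xFAD and wild type was 0.08 for Tph1, -0.19 for Ddc, 0.39 for Aanat and -0.55 for Asmt, and the smallest exact permutation p was 0.2. Each of these is the enzyme's own difference less the marker difference of 0.38. For Aanat and Asmt, which did not follow the markers, that shift reflects the markers.

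**Figure D2:**
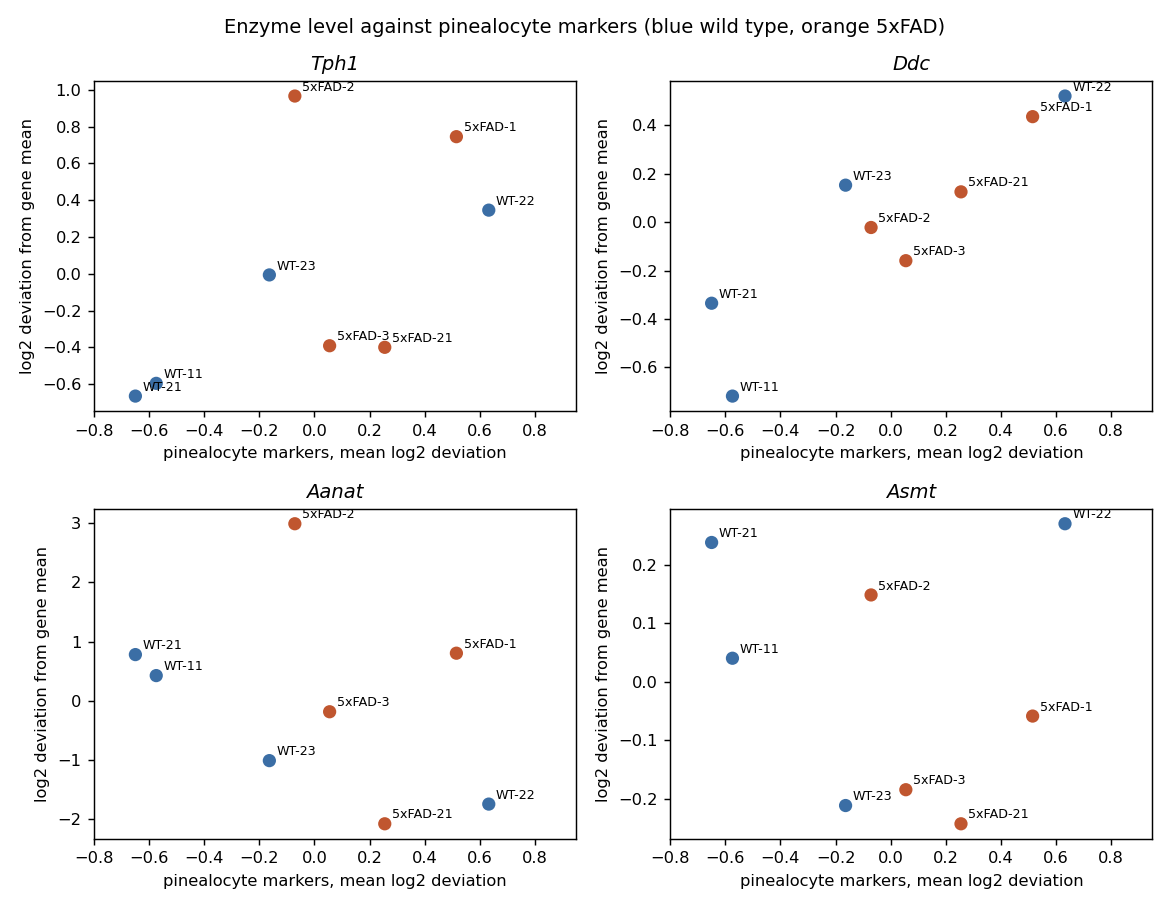
Log2 level of each enzyme (y, deviation from its mean) against the mean log2 deviation of 8 pinealocyte markers (x), 1 point per library (blue, wild type; orange, 5xFAD). Ddc lies along a line (r = 0.89), whereas Aanat and Asmt do not follow the markers.

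The genes whose levels were most like those of each enzyme over the 8 libraries were searched among 9640 protein-coding genes with a mean of at least 5 FPKM. For Tph1 these were Lgmn, A930003A15Rik, Wdr61, Eif4a1 and Ndufb4, with r from 0.97 to 0.99. For Ddc they were Scamp4, Cxx1a, Fam134a, Cmtr1 and Ccndbp1, with r from 0.98 to 0.99. For Aanat they were Slc16a1, Txnip, Tceal9, Npm3 and Pttg1ip, with r from 0.96 to 0.97. For Asmt the values were lower: Gfm2 had an r of 0.90 and Maml1, RP24-324P21.9, Isg20 and Zc3h11a had 0.85 to 0.86. An r over 0.9 was found for 404 genes with Ddc, 124 with Tph1, 36 with Aanat and 1 with Asmt. These genes were picked for their likeness from libraries that share makeup, so no p is given.

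The single library in which Aanat was high differed in other genes. In 5xFAD-2, Aanat was 4.60 times the next highest library, 5xFAD-1. Of 12 night-induced targets of cAMP, 10 had a mean of at least 1 FPKM. Of these 10, 7 were highest in 5xFAD-2, against 16.9% of all genes tested, and 5 were at least 2-fold above every other library, against 1.42%. These were Fosl2 at 28.3 FPKM, Nr4a1 at 63.9, Dusp1 at 66.0, Pde4b at 17.6 and Sik1 at 19.6. They encode a Fos-family factor, an orphan nuclear receptor, a phosphatase of MAP kinases, a phosphodiesterase of cAMP and a kinase that restrains cAMP signalling. Other members of the list did not share this. Dio2, Rgs2 and Mat2a were highest in other libraries, as were Drd4 and Atp7b, which had means under 1 FPKM. Atp7b was lowest in 5xFAD-2, at 0.488 FPKM. Over all 12 genes the counts were also 7 and 5. Nr4a1 and Dusp1 were next highest in 5xFAD-21, at 17.8 and 18.6 FPKM, the library where Aanat was lowest. 5xFAD-2 was also the library with brown fat transcripts. Ucp1, the uncoupling protein of brown fat, stood at 516 FPKM there and at most at 0.193 elsewhere, and the summed FPKM of 4 brown fat markers was 868 against 16.2 to 44.0 in the other 7 libraries. The part of that admixture in the level of Aanat was not tested.

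**Figure D3:**
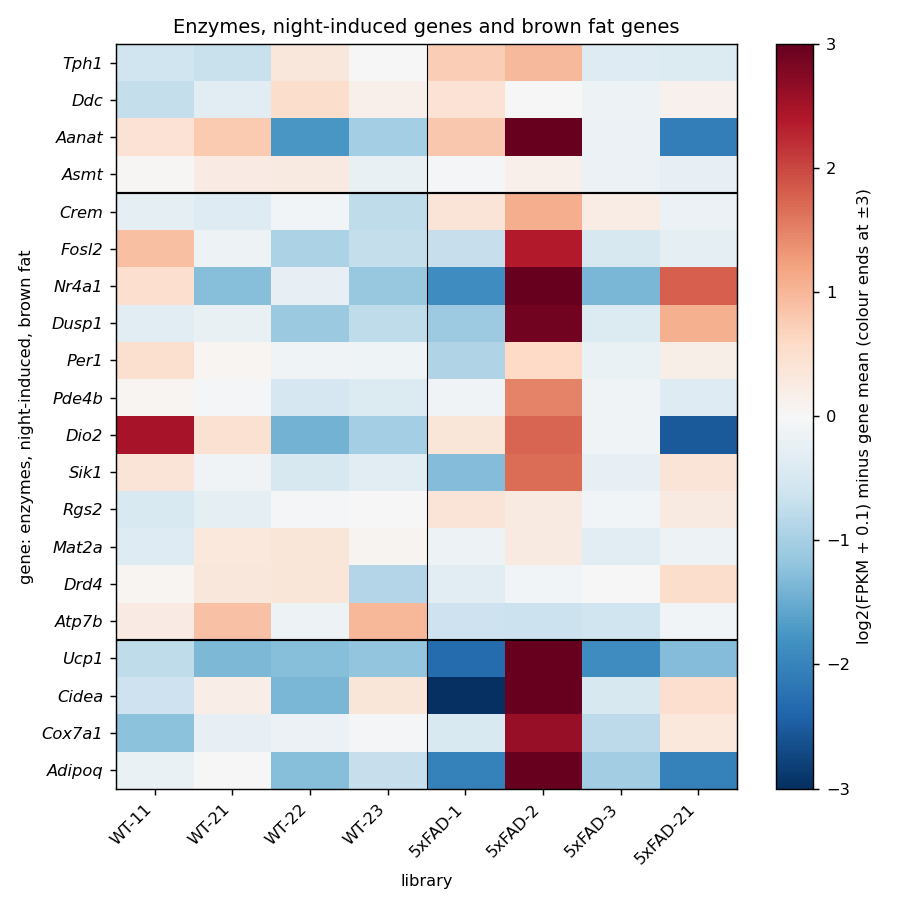
Log2(FPKM + 0.1) minus the mean of the gene, for the 4 enzymes (top), 12 night-induced genes (middle) and 4 brown fat markers (bottom) in each library; red is above and blue below the mean, and colours end at ±3. In 5xFAD-2, Aanat, Fosl2, Nr4a1, Dusp1, Pde4b and Sik1 and all 4 brown fat markers are red together.

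Other genes of the pathway were counted in lists. Of 75 genes, 62 had a mean of at least 1 FPKM, and 41 of these had a log2 fold change above 0 (66.1%), against 48.7% of all genes tested. In limma 0 of the 62 passed an adjusted p of 0.05, 6 were higher in 5xFAD at an unadjusted p under 0.05 (9.68%), against 4.6% of genes, and 0 were lower, against 3.35%. The 6 were Dnajc12, Gchfr, Adcy1, Crem, Rgs2 and Neurod1. The count of 6 was 16 without WT-22 and 3 without WT-11, WT-21, WT-23 or 5xFAD-21 in turn. The median log2 fold change was 0.09 over the lists and -0.01 over all genes. The part of the uneven pinealocyte marker levels in these counts was not tested.

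Tph1 needs tetrahydrobiopterin, and all 9 genes of the list around this cofactor had a positive log2 fold change, with a median of 0.27. The list holds enzymes of its synthesis and recycling, and also Dnajc12 and Gchfr, which are neither and were the 2 with an unadjusted p under 0.05. Dnajc12, the co-chaperone of the aromatic amino acid hydroxylases, had FPKM values of 15.7, 13.2, 23.9 and 15.3 for wild type and of 33.3, 38.0, 26.6 and 21.4 for 5xFAD. Only WT-22 reached into the 5xFAD range, and the log2 fold change was 0.81 with a standard error of 0.23 (limma, adjusted p = 0.545). Gchfr, which encodes the feedback regulator of GTP cyclohydrolase, was 7.97 ± 5.52 and 14.2 ± 3.00 FPKM (SD, n = 4 each), a log2 difference of 1.03 (limma, adjusted p = 0.6). Gch1 itself, the entry enzyme of the cofactor pathway, was 82.4 ± 25.7 and 89.3 ± 16.6 FPKM (limma, adjusted p = 0.861). Tryptophan enters through amino acid transporters, and all 4 of these had a log2 fold change below 0, with a median of -0.14. Among all genes tested, 6712 of 13094 lay below 0. The 95% interval of each transporter spanned 0, and Slc3a2 was at -0.015. Slc7a5, the transporting subunit that pairs with Slc3a2, was 25.7 ± 9.64 and 21.2 ± 3.26 FPKM (limma, adjusted p = 0.871).

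For Aanat, the 3 genes of acetyl-CoA supply had a median log2 fold change of 0.08, and the 6 genes of its 14-3-3 binding partners had a median of 0.06, with Ywhae the most abundant at 137 ± 27.6 and 141 ± 4.65 FPKM. For Asmt, the 6 genes of the S-adenosylmethionine cycle had a median of -0.08, with 4 of 6 below 0. Mat2a, which makes the methyl donor, had means of 157 ± 34.9 for wild type and 138 ± 25.2 FPKM for 5xFAD (SD, n = 4 each; limma, adjusted p = 0.807). Acss1, the mitochondrial acetyl-CoA synthetase, ranged from 0.871 FPKM in 5xFAD-1 to 12.2 in 5xFAD-2, and was the most uneven of these supply genes.

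Serotonin has other fates than melatonin. Of 7 genes for its breakdown, methylation and transport, 4 were tested and 0 passed an unadjusted p of 0.05 in limma, against 7.95% of all genes tested. With 4 genes, a count of 0 is near that share. Aldh2, which oxidizes aldehydes such as that made from serotonin, was 62.7 ± 4.97 and 81.2 ± 16.3 FPKM (limma, adjusted p = 0.629). Maob was uneven, from 9.79 FPKM in 5xFAD-1 to 47.4 in WT-23. The serotonin transporter Slc6a4 and the vesicular transporters Slc18a1 and Slc18a2 had means under 1 FPKM. None of 6 other enzymes of aromatic amino acids and tryptophan breakdown reached a mean of 1 FPKM. The melatonin receptor Mtnr1a is listed at 0 in every library, and Mtnr1b was at most 0.0589 FPKM.

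Among 11 genes of adrenergic and cAMP control the median log2 fold change was 0.18. Adcy1, an adenylyl cyclase, had 4.06, 3.54, 9.60 and 3.24 FPKM for wild type and 11.2, 5.02, 10.2 and 10.5 for 5xFAD, with WT-22 and 5xFAD-2 each unlike its group (limma, log2 fold change 0.92, adjusted p = 0.607). Of the night-induced genes, 10 were tested and had a median of 0.43. Crem, whose product includes the cAMP repressor ICER, was 33.1 ± 6.40 and 58.4 ± 23.1 FPKM (SD, n = 4 each; limma, adjusted p = 0.593). Rgs2, a regulator of G-protein signalling, was 53.5 ± 7.54 and 71.7 ± 9.66 FPKM (limma, adjusted p = 0.58). Of 8 pinealocyte transcription factors the median was -0.07 and 3 were above 0. Crx was 194 ± 54.4 and 174 ± 29.1 FPKM (limma, adjusted p = 0.867), and Neurod1 was 66.6 ± 22.8 and 98.0 ± 24.2 FPKM (limma, adjusted p = 0.623).

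**Figure D4:**
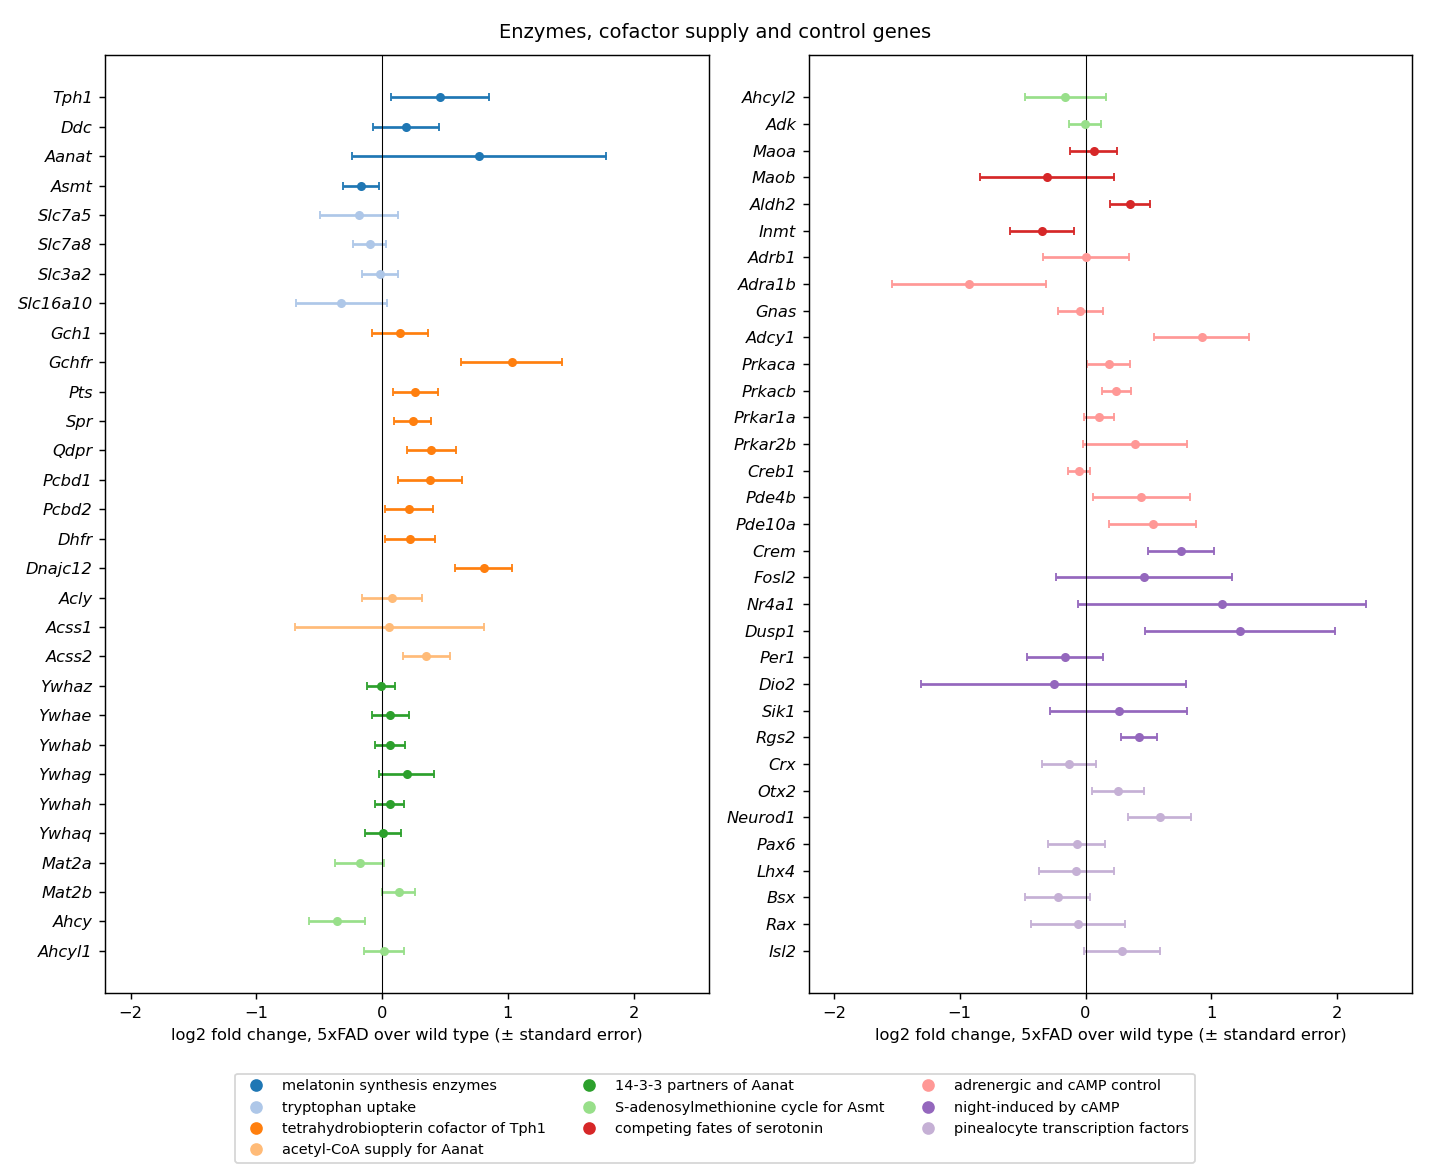
Log2 fold change of 5xFAD over wild type (x, bars ± standard error from limma) for the 4 enzymes and for tested genes of the pathway lists shown (y), coloured by list. All 9 tetrahydrobiopterin genes lie above 0, and the bar of Aanat, with a standard error of 1.01, is among the widest.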

How the data were processed

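Total RNA of pooled pineal glands was depleted of ribosomal RNA and sequenced as paired, stranded libraries. The authors trimmed the reads with Trimmomatic, aligned them with STAR to mm10 (GRCm38.p6) and computed the deposited FPKM values with Cuffnorm on GENCODE M17; versions and strand settings are not given in the sources used here. FPKM summed to 320286 to 391275 per library over protein-coding genes. The read depth behind a value cannot be had from FPKM alone.

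From these, limma 3.58.1 in R 4.3.3 (eBayes with a trend, no covariate) was fitted here on log2(FPKM + 0.1) for 13094 protein-coding genes with a mean of at least 1 FPKM, with Benjamini-Hochberg adjustment over them. A fold change on this scale understates that of low genes. Ratios and correlations were tested by exact permutation. The scripts were tested on simulated data. A limma p sets a group difference against the spread between pools. A permutation p sets it against other assignments of the pools, or a correlation against other pairings of the libraries. Gene IDs were matched to GENCODE M21. The enzymes and lists were chosen with earlier results of these data known. In each list, genes of smallest p and highest mean were named; genes of 5xFAD-2, Xist, Ttr, Malat1 and the Ddc antisense gene were picked once their values had been seen. The result of the cofactor list of Ddc is not reported here. Alternatives covered the pseudocount, filter, scaling, weights, blocks and single libraries.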

Additional observations from a re-analysis of the deposited data

Results flagged for a closer look

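Of 106 groups of 4 libraries examined, 7 held a library far from the other 3 by Dixon's test at 95%. This share is near the 1 in 20 that chance gives. None was an enzyme of the chain. Not every list gene was examined: Fosl2 is absent from the 7, at 28.3 FPKM in 5xFAD-2 against 3.24 to 4.39 in the other 5xFAD libraries. Of the genes of cofactor and precursor supply, Acss1 was 1.90 FPKM in WT-22 against 5.94 to 6.14 in the other wild type libraries, Pdxk was 16.9 FPKM in WT-11 against 29.6 to 30.2, and the tryptophan transporter Slc16a10 was 2.56 FPKM in 5xFAD-2 against 0.963 to 1.19 in the other 5xFAD libraries. Of the control genes, Adcy1 was 9.60 FPKM in WT-22 against 3.24 to 4.06, and 5.02 FPKM in 5xFAD-2 against 10.2 to 11.2. The adrenergic receptor gene Adra1b was 7.55 FPKM in 5xFAD-2 against 2.05 to 2.86, and Pde4b was 17.6 FPKM against 4.72 to 5.78. All 7 were in WT-11, WT-22 or 5xFAD-2. WT-22 also stood apart in Xist and 5xFAD-2 in brown fat markers, and their part in the values was not tested.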

How the results depend on the processing

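Of 226 recomputed values, 196 kept direction and side of the threshold, 16 changed sign and 14 counts moved by over 1.5 times; no enzyme or ratio passed its threshold under any alternative that gave a test, and the cause of each change was not tested. Leaving out single libraries gave log2 differences of 0.21 to 0.67 for Tph1, -0.018 (without WT-11) to 0.40 for Ddc, -0.10 to 1.59 for Aanat and -0.27 to -0.11 for Asmt. It gave ratio differences of -0.49 to 0.014 (without 5xFAD-2) for Ddc to Tph1, -0.33 to 0.92 for Aanat to Tph1 and -0.33 to 1.41 for Aanat to Ddc. Aanat to Tph1 was -0.33 without WT-22 and -0.31 without 5xFAD-2, and Aanat to Ddc was -0.08 and -0.33. Without both WT-22 and 5xFAD-2, chosen after seeing the data, Aanat was -0.55, Ddc to Tph1 0.028, Aanat to Tph1 -0.96, Aanat to Ddc -0.99 and Asmt to Aanat 0.37. The titles number libraries under 20 (1 wild type, 3 5xFAD) or in the twenties (3 and 1), and what the numbers mark is not given. Within the twenties alone, added after seeing the data, Tph1 was -0.29 and Aanat -1.42, and among those under 20 Tph1 was 1.04, Ddc 0.80 and Aanat 0.78. With the number set as a term Ddc was 0.41 and Aanat -0.32. Relative to the pinealocyte markers, also added, Ddc was -0.19.

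List genes higher in 5xFAD numbered 11 with equal protein-coding totals, 10 with array weights, 14 without both libraries and 3 to 16 leaving out single libraries. Those lower numbered 1 with no filter, 3 with array weights, 1 with the number set as a term, 2 without both libraries and 0 to 1 leaving out single libraries. Replicates were numbered here by their order in each group, not by title. Same-numbered replicates share only this order, and their deviations had correlations of -0.04, 0.21, -0.34 and 0.24. WT-21 and 5xFAD-21, which share a title number, had a correlation of -0.31. With the replicate number as a block, Aanat had a standard error of 0.53 (limma, adjusted p = 0.843), and the count of higher list genes stayed at 6. The block changed no call for the enzymes, and the ratios could not pass under it. The authors list the total reads of each library, but not the reads behind each FPKM. In their list the GC rate was lower in every 5xFAD library than in any wild type library, and its part in the values was not tested. With 4 pools a group the interval of Aanat spanned 0.347-fold to 8.39-fold.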
